A study of Mus musculus with 6 samples.

Results

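The adult globins of the mouse are encoded by 4 genes, Hba-a1 and Hba-a2 for the alpha chain and Hbb-bs and Hbb-bt for the beta chain. They were taken by gene name from a table of 54532 genes measured by RNA sequencing in 6 oocyte libraries. The 3 AMH libraries came from C57BL/6J mice that received 300 ng of AMH (recombinant mouse protein made in E. coli) by intraperitoneal injection every day, beginning at 21 days of age. AMH, anti-Müllerian hormone, is a TGF-beta family hormone made by granulosa cells of growing follicles. The 3 control libraries came from C57BL/6J mice labelled Control, and the labels do not say whether these were injected. All 6 carry an age of 6 to 7 weeks. The labels give neither the number or stage of the oocytes, nor whether cumulus cells were removed, nor whether each library is a separate animal. By its title the series concerns oocyte quality, embryo development and live births after AMH, and the comparison described is AMH over control.

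Haemoglobin is built from a pair of alpha and a pair of beta chains, each holding a haem group that binds oxygen. Red-cell precursors make its mRNA in very large amounts under the transcription factors GATA1 and KLF1, and young circulating red cells still carry that mRNA. Globin mRNA at low level has also been reported in ovarian follicle cells, including mouse cumulus cells. C57BL/6J mice carry a beta-globin haplotype whose adult genes are Hbb-bs and Hbb-bt. The 4 genes were chosen by name, with their counts, FPKM and AMH over control differences in these libraries already known. Their levels and fold changes are therefore given as a description, with no test.

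Both alpha genes lie on chromosome 11 and both beta genes on chromosome 7 (GRCm38). Hba-a1 (ENSMUSG00000069919) spans 32283511 to 32284465 and Hba-a2 (ENSMUSG00000069917) spans 32296489 to 32297298, both on the plus strand. Hbb-bs (ENSMUSG00000052305) spans 103826534 to 103828096 and Hbb-bt (ENSMUSG00000073940) spans 103812524 to 103813996, both on the minus strand. Within each pair the coding sequences, compared without the stop codon, are nearly the same. Hba-a1 and Hba-a2 differ at 1 of 426 coding bases (C381T, Hba-a1 base first, counted from the A of the start codon). Hbb-bs and Hbb-bt differ at 1 of 441 coding bases (C417T, Hbb-bs base first, counted likewise). The stretch around each difference, from the GENCODE M21 transcripts, is shown because it is the only coding position by which a read can be given to one copy or the other, and the capital marks it.
Hba-a1: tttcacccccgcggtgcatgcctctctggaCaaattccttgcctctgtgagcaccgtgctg
Hba-a2: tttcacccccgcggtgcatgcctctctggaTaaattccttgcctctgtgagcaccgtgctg
Hbb-bs: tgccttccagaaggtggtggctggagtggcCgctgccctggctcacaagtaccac
Hbb-bt: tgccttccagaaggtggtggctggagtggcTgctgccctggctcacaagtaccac

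Of the 50-base windows of each protein-coding transcript, untranslated parts included, 67.5% of those of Hba-a1 and 86.9% of those of Hba-a2 also occur in another adult globin transcript. The figures are 65.8% for Hbb-bs and 58.3% for Hbb-bt. How the counting treated reads that fit more than 1 gene is not given in the sources used here, so the split between the copies of a pair is uncertain. Alpha and beta coding sequences share 66.9% to 67.1% of aligned positions, so reads are less likely to be mixed up between alpha and beta. If reads that fit both copies of a pair were dropped, the alpha and beta totals would both be too low. The loss could differ between them, so the level of the alpha share is uncertain too.

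The promoters were examined because the 4 genes varied together across the libraries. The 250 bases before the RefSeq start of each gene (RefSeq, GRCm38.p6) were searched on both strands for 4 motifs. They were CACCC, the kind of box bound by KLF1, then GATAA, bound by GATA factors, then CCAAT, and TATAA, a form of the TATA box. No matches overlapped each other in the 4 windows. Each of the 4 promoters held all 4 motifs, as did 0.968% of 32851 promoter windows of the same length in the genome. Singly, CACCC was in 52.0% of them, GATAA in 22.6%, CCAAT in 33.8% and TATAA in 22.8%. The search included sites of factors already known to drive globin genes, so nothing is read from these shares. The Hba-a2 window is the Hba-a1 window shifted by 3 bases, with 247 of 247 compared bases identical. It is therefore not shown and is not a separate case. Capitals mark the motifs. RefSeq places the start of all 4 genes inside the gene span of the authors' table, so part of each window lies within that span. The windows are chr11:32283422-32283671 (plus strand), chr7:103827929-103828178 (minus strand) and chr7:103813924-103814173 (minus strand).
Hba-a1: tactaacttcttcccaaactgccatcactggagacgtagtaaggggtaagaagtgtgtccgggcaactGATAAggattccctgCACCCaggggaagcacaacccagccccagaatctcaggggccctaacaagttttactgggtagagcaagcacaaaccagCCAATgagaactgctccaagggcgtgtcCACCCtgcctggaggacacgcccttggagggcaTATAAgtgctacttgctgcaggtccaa
Hbb-bs: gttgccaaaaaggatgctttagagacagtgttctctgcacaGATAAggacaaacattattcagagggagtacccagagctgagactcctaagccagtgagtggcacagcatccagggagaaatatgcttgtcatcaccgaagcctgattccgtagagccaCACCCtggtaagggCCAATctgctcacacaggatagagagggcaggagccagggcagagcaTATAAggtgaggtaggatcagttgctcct
Hbb-bt: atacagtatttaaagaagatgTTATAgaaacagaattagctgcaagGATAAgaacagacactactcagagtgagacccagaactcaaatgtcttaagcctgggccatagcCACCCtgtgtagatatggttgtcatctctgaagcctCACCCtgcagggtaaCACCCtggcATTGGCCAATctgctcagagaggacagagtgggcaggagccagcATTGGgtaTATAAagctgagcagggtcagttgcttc

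In these 3 genes the TATAA nearest the start began 27 to 29 bases before it, and a CCAAT on the gene's own strand began 75 to 88 bases before it. GATAA began 182 bases before the start in Hba-a1, 209 in Hbb-bs and 204 in Hbb-bt. A match to these letters is a description of the sequence and does not show that a factor was bound.

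Over all genes AMH 3 and control 3 were nearer to each other than to their own groups, by a chi-square of their counts per degree of freedom. It was 55.9 between them, against 239 and 274 between AMH 3 and the other AMH libraries, and 191 and 350 between control 3 and the other controls. Without AMH 3 the log2 fold changes of the globins were 6.74 to 7.46.

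All 4 globins had higher counts in every AMH library than in any control, and AMH 1 stood far above the other 5 libraries. Summed over the 4 genes, the counts were 28020, 2131 and 1424 in AMH 1, 2 and 3, against 24, 26 and 226 in controls 1, 2 and 3. Library totals were 66392859 to 72109080 counts, so the globins made up 0.0404% of AMH 1 and 0.00214% to 0.00320% of AMH 2 and 3. In CPM, the count scaled by library size and edgeR's TMM factor, the sums were 345, 27.9 and 21.7 in AMH 1, 2 and 3, against 0.372, 0.405 and 3.43 in controls 1, 2 and 3. The means were 132 ± 185 CPM in AMH libraries and 1.40 ± 1.75 CPM in control libraries (SD, n = 3 each), a ratio of 93.9. In both groups 1 library held most of the globin signal. AMH 1 held 88.7% of the AMH globin counts and control 3 held 81.9% of the control globin counts. Without AMH 1 the AMH mean was 24.8 CPM and the ratio was 17.7. The lowest AMH library, AMH 3, was 6.34 times the highest control, control 3. In such bulk libraries fewer cells of a type and less RNA per cell cannot be told apart.

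Hba-a1, the most counted alpha gene, had 14812, 1139 and 741 counts in AMH 1, 2 and 3, against 16, 5 and 116 counts in controls 1, 2 and 3. In CPM this was 183, 14.9 and 11.3 in AMH libraries, against 0.248, 0.0779 and 1.76 in controls. AMH 1 was highest, control 3 lay between the other AMH libraries and the other controls, and the groups did not overlap. The means were 69.6 ± 97.8 CPM in AMH libraries and 0.695 ± 0.926 CPM in controls (SD, n = 3 each), and the fitted log2 fold change was 6.64. Without AMH 1 it was 4.22 and without control 3 it was 8.71.

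Hbb-bs, the most counted beta gene, followed the same order. It had 9145, 738 and 506 counts in AMH 1, 2 and 3, against 6, 3 and 101 counts in controls 1, 2 and 3. The means were 43.4 ± 60.1 CPM in AMH libraries and 0.557 ± 0.844 CPM in controls (SD, n = 3 each). The groups did not overlap, and the log2 fold change was 6.27, or 3.95 without AMH 1 and 9.23 without control 3.

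Hba-a2, the other alpha copy, had 2310, 146 and 121 counts in AMH 1, 2 and 3, against 2, 7 and 8 counts in controls 1, 2 and 3. AMH 1 again stood apart, while control 3 did not stand above control 2 beyond counting error (95% exact Poisson intervals 3.45 to 15.8 and 2.81 to 14.4 counts). The means were 10.7 ± 15.3 CPM in AMH libraries and 0.0872 ± 0.0490 CPM in controls (SD, n = 3 each), with a log2 fold change of 6.92, or 4.39 without AMH 1 and 7.22 without control 3.

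Hbb-bt, the other beta copy, had 1753, 108 and 56 counts in AMH 1, 2 and 3, against 0, 11 and 1 counts in controls 1, 2 and 3. For the 0 in control 1 a floor of 3 counts was used, and the upper end of its 95% exact Poisson interval is 3.69 counts. The means were 7.96 ± 11.8 CPM in AMH libraries and 0.0622 ± 0.0949 CPM in controls (SD, n = 3 each), and the log2 fold change was 6.97. It was 4.14 without AMH 1, 6.50 without control 3 and 9.71 without control 2, which held 11 of the 12 control counts. Intervals on counts and shares cover counting error only.

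**Figure D1:**
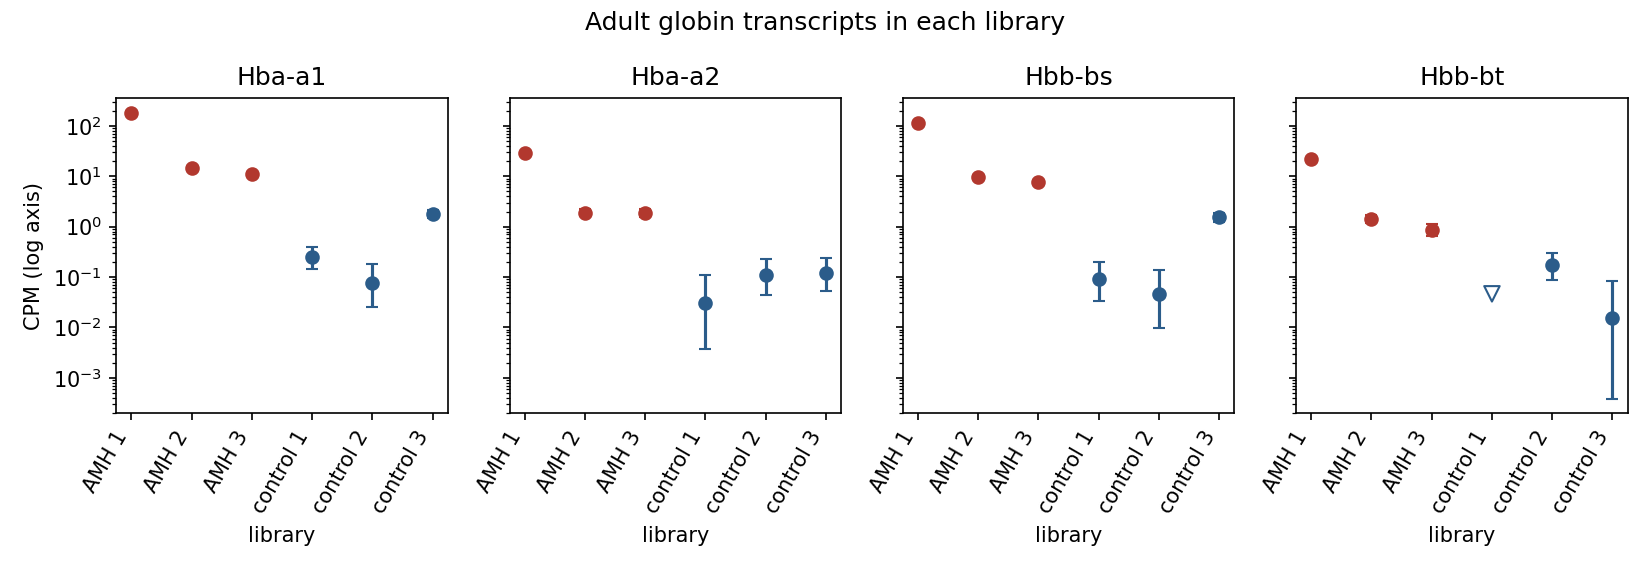
CPM (log axis) of each adult globin in the 3 AMH libraries (red) and the 3 control libraries (blue), with 95% exact Poisson intervals of the counts; the open triangle marks 0 counts, drawn at the CPM of 3 counts. Every AMH library lies above every control for all 4 genes, with AMH 1 highest, and control 3 stands above the other controls for Hba-a1 and Hbb-bs.

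No overlap between the groups, with AMH higher, was seen for 4 of 4 globins and for 26.9% of the 18868 genes tested, while in 23.3% every AMH library was below every control. Since the globins were chosen with this contrast known, nothing is read from that count. By size of the fitted log2 fold change they ranked 17th (Hba-a1), 15th (Hba-a2), 20th (Hbb-bs) and 13th (Hbb-bt) of those genes, whose median was -0.01. All 4 passed the low-count filter through the AMH libraries. Over all genes, edgeR's quasi-likelihood test called 0 (0% of those tested) at an adjusted p of 0.05, and its smallest adjusted p was 0.116. Before adjustment, p was under 0.05 for 3814 genes that were higher (20.2%) and 3266 that were lower (17.3%) in AMH libraries. At an adjusted p of 0.05 DESeq2 called 3067 higher (16.3%) and 1468 lower (7.78%), and it gave no adjusted p for any of the 4 globins. limma on log2(FPKM + 1) called 0 of 11894 genes, with 3636 higher and 3051 lower at an unadjusted p under 0.05. edgeR called 7513 genes without control 3 and 1607 without AMH 3.

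**Figure D2:**
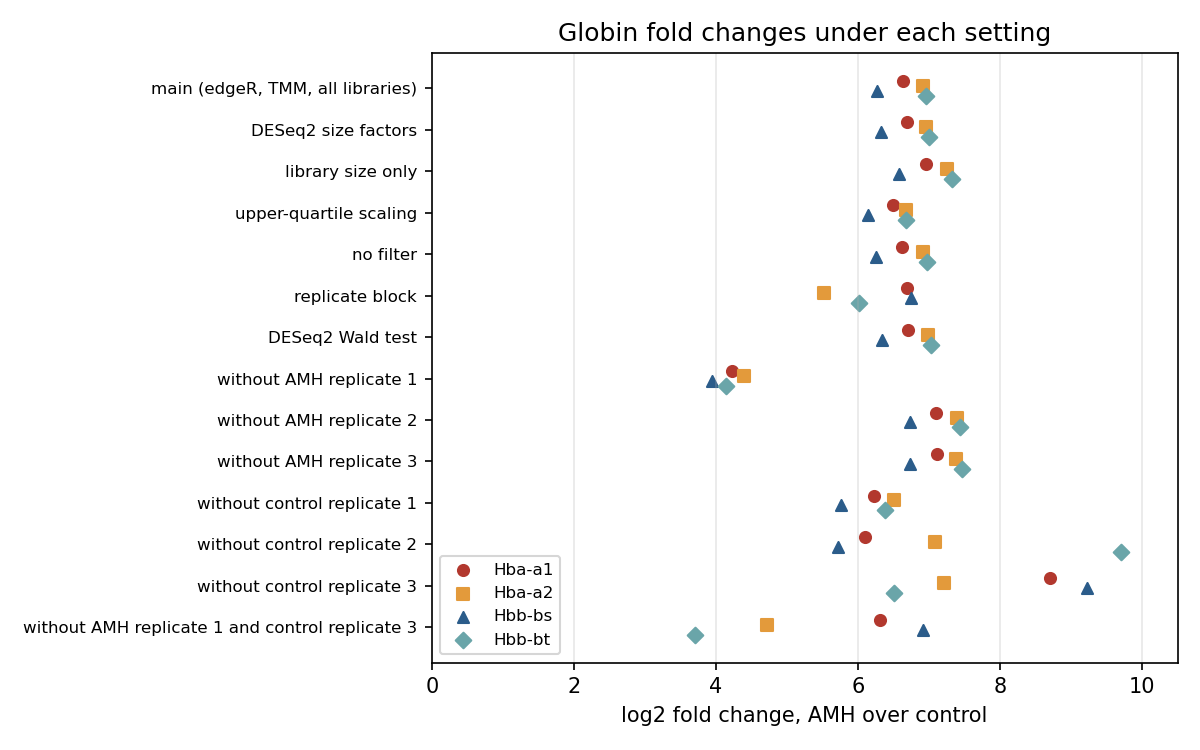
Log2 fold change, AMH over control, of each adult globin in the count model (edgeR with TMM scaling and all libraries, top row) and under each other setting. All points are above 0; leaving out AMH 1 gives 3.95 to 4.39, and Hbb-bt reaches its lowest value, 3.70, without AMH 1 and control 3.

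FPKM, which divides each count by gene length and an effective library size, allows levels of different genes to be set side by side. On that scale the order within AMH 1, 2 and 3 was the same: Hba-a1, Hbb-bs, Hba-a2, Hbb-bt. Such an order is open to the uncertainty in how reads of near-identical copies were counted. Hba-a1 had 222, 18.1 and 13.1 FPKM in AMH 1, 2 and 3, against 0.296, 0.0922 and 2.05 FPKM in controls 1, 2 and 3. Hbb-bs had 145, 12.4 and 9.44 FPKM in AMH libraries, against 0.117, 0.0585 and 1.89 FPKM in controls. Hba-a1 thus led Hbb-bs in every library. Hba-a2 had 42.2, 2.82 and 2.60 FPKM in AMH libraries, against 0.0450, 0.157 and 0.172 FPKM in controls. Hbb-bt had 30.4, 1.98 and 1.14 FPKM in AMH libraries, against 0, 0.234 and 0.0204 FPKM in controls. Control 2 broke the order, with Hbb-bt and Hba-a2 above Hba-a1 and Hbb-bs, at 3 to 11 counts a gene. Among all genes by FPKM, Hba-a1 ranked 125th in AMH 1, 2640th in AMH 2 and 3431st in AMH 3, against 14633rd, 17288th and 9393rd in controls 1, 2 and 3. Hba-a1 averaged 84.5 ± 119 FPKM and Hbb-bs 55.6 ± 77.5 FPKM over the AMH libraries (SD, n = 3). That spread comes mostly from AMH 1, high for each globin, so it does not measure the order of genes within a library.

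Alpha and beta counts stood in nearly 1 ratio in the AMH libraries although the globin totals differed 15.9-fold in CPM between AMH 1 and AMH 3. Alpha genes made up 61.1%, 60.3% and 60.5% of globin counts in AMH 1, 2 and 3, against 75.0%, 46.2% and 54.9% in controls 1, 2 and 3. The 95% exact (Clopper-Pearson) intervals were 60.5% to 61.7%, 58.2% to 62.4% and 57.9% to 63.1% in AMH libraries, and 53.3% to 90.2%, 26.6% to 66.6% and 48.1% to 61.5% in controls. Each control interval overlapped those of AMH 1, 2 and 3. The means were 60.6% ± 0.415 in AMH libraries and 58.7% ± 14.8 in controls (SD, n = 3 each), a difference of 1.97 points (two-sided exact permutation p = 0.8, adjusted 1 over 3 shares). With 3 libraries against 3 this test cannot go below 0.1. The level of the alpha share is also open to how reads shared between copies were counted.

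Within the pairs, Hba-a1 held 86.5%, 88.6% and 86.0% of alpha counts in AMH 1, 2 and 3, against 88.9%, 41.7% and 93.5% in controls 1, 2 and 3. Hbb-bs held 83.9%, 87.2% and 90.04% of beta counts in AMH libraries, against 100%, 21.4% and 99.0% in controls. The beta shares of AMH 1 (interval 83.2% to 84.6%) and AMH 3 (87.3% to 92.4%) differed by more than counting error, and that of control 3 (94.7% to 99.98%) lay above all 3 AMH intervals. Control 2 had an Hba-a1 share with an interval of 15.2% to 72.3% of 12 counts and an Hbb-bs share with an interval of 4.66% to 50.8% of 14 counts, both below the AMH intervals. The group means were 87.04% ± 1.41 in AMH libraries and 74.7% ± 28.7 in controls for Hba-a1, and 87.1% ± 3.06 in AMH libraries and 73.5% ± 45.1 in controls for Hbb-bs (SD, n = 3 each). The two-sided exact permutation test gave p = 1 for each (adjusted 1 over 3 shares), and both are open to the uncertainty in how reads of near-identical copies were counted.

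**Figure D3:**
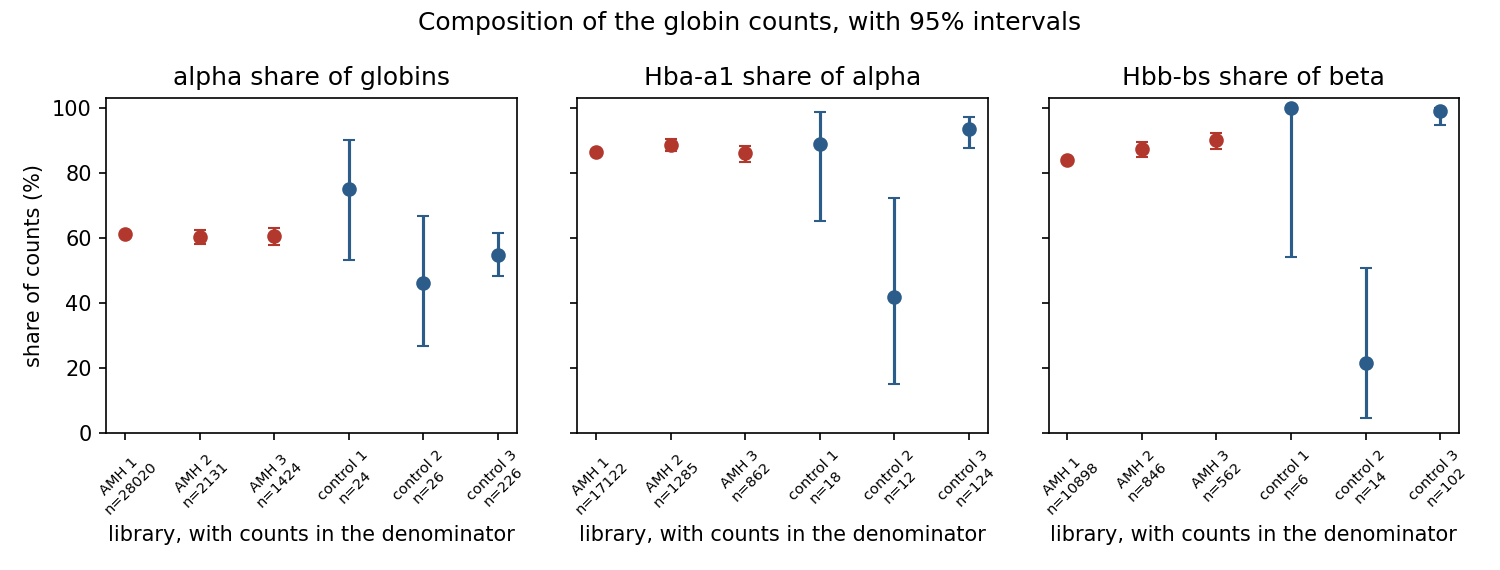
Alpha share of all 4 globins' counts, Hba-a1 share of alpha counts and Hbb-bs share of beta counts in each library (AMH red, control blue), with 95% exact binomial intervals and the counts in the denominator under each library. AMH 1, 2 and 3 sit at 60.3% to 61.1% alpha; controls 1 and 2 rest on 24 and 26 counts, and control 2 has low Hba-a1 and Hbb-bs shares.

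Other globins of the mouse had at most 51 counts in any library. Among those with more than 7 counts in a library, none was set apart by a high value in AMH 1. The embryonic genes Hba-x, Hbb-y, Hbb-bh1 and Hbb-bh2 and the theta gene Hbq1b had 0 to 7 counts in any library. Hbq1a, a theta gene beside Hba-a2 on chromosome 11, had 3, 22 and 11 counts in AMH 1, 2 and 3, against 35, 27 and 18 in controls 1, 2 and 3. Its lowest value was in AMH 1, where the adult globins were highest, and the groups overlapped. Hba-ps3, a processed pseudogene of alpha globin on chromosome 15, had 19, 15 and 13 counts in AMH libraries, against 32, 24 and 20 counts in controls. Cygb, cytoglobin, had 40, 51 and 45 counts in AMH libraries, against 8, 0 and 17 counts in controls, without a peak in AMH 1. Mb, myoglobin, had 18, 20 and 17 counts in AMH libraries, against 25, 42 and 12 counts in controls. Ngb, neuroglobin, had 0 to 3 counts in any library. For Cygb every AMH library was above every control, and for Hba-ps3 every AMH library was below every control. Of the 4 other globin rows that passed the low-count filter (Cygb, Mb, Hbq1a and Hba-ps3), 0 were called by edgeR and 0 by DESeq2, and 0 had an unadjusted edgeR p under 0.05.

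Genes flanking the clusters had smaller fold changes or no counts. Nprl3, whose introns hold the alpha-globin enhancers, had 2150, 1427 and 922 counts in AMH 1, 2 and 3, against 512, 282 and 788 counts in controls 1, 2 and 3. Its groups did not overlap, and its log2 fold change of 1.29 did not pass edgeR's test (adjusted p = 0.116). Mpg, a DNA repair glycosylase that overlaps Nprl3, had 815, 739 and 711 counts in AMH libraries, against 656, 669 and 561 counts in controls (log2 fold change of 0.07, edgeR adjusted p = 0.811). Beyond Hbq1a, Sh3pxd2b had a log2 fold change of 1.46 (edgeR adjusted p = 0.149). On chromosome 7 the 3 nearest protein-coding genes on the Hbb-bt side, the olfactory receptors Olfr67, Olfr68 and Olfr69, had 0 counts in every library.

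Red-cell genes other than the globins did not move as 1 group. Alas2 and Slc4a1 had their highest count in AMH 1, as the globins did, while other genes of low count did not follow that order. Alas2, the red-cell form of the enzyme that begins haem synthesis (chromosome X), had 921, 152 and 73 counts in AMH 1, 2 and 3, against 97, 45 and 146 counts in controls 1, 2 and 3. AMH 1 stood apart and the remaining libraries of the groups overlapped. Its means were 4.82 ± 5.67 CPM in AMH libraries and 1.47 ± 0.757 CPM in controls (SD, n = 3 each), with a log2 fold change of 1.71 (edgeR adjusted p = 0.194). Slc4a1, the band 3 anion exchanger of the red-cell membrane, had 16 counts in AMH 1 and 0 in each of the other 5 libraries. Klf1, the red-cell activator of the beta-globin gene, had 12, 12 and 6 counts in AMH 1, 2 and 3, against 1, 4 and 6 counts in controls 1, 2 and 3. Kel and Icam4, both blood-group proteins of the red-cell surface, had 0 counts in every library, and Ahsp, the alpha-globin chaperone, was not analysed here. Car2, a carbonic anhydrase abundant in red cells and named after its values were seen, had 333, 59 and 41 counts in AMH 1, 2 and 3, against 28, 16 and 50 counts in controls 1, 2 and 3. Of other low-count genes named likewise, Hemgn, a nuclear protein of blood precursors, had 6, 10 and 1 counts in AMH libraries, against 16, 20 and 6 counts in controls. Epor, the erythropoietin receptor, had 82, 38 and 88 counts in AMH libraries, against 4, 0 and 45 counts in controls. Rhag, a membrane protein of the Rh complex, had 6 counts in control 1 and 0 elsewhere.

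A list of 14 defining red-cell markers, 13 of them in the table, had a summed CPM of 38.1, 26.9 and 37.7 in AMH 1, 2 and 3, against 45.5, 51.3 and 38.6 in controls 1, 2 and 3. AMH 1 was thus not set apart by that sum. The median log2 fold change of the 6 markers tested was -0.37.

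For others every AMH library was below every control, as for 23.3% of all tested genes. Bpgm, which makes the red-cell oxygen regulator bisphosphoglycerate, had 2056, 2212 and 3824 CPM in AMH 1, 2 and 3, against 4412, 4397 and 3875 CPM in controls 1, 2 and 3. Epb41, a membrane skeleton protein, had 115, 137 and 137 CPM in AMH libraries, against 225, 241 and 168 CPM in controls. Tmcc2 had 80.8, 86.3 and 112 CPM in AMH libraries, against 174, 213 and 134 CPM in controls. Gata1 had 2.44, 2.55 and 3.23 CPM in AMH libraries, against 3.63, 4.89 and 3.32 CPM in controls. None of these passed edgeR's test (adjusted p = 0.135, 0.116, 0.116 and 0.205). Summed CPM of 16 oocyte markers was 15286, 14725 and 25058 in AMH 1, 2 and 3, against 30111, 32618 and 25567 in controls 1, 2 and 3, the same order of groups as these genes; its part in them was not tested.

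Of the 30 genes of the red-cell list, which holds no globin, 29 were in the table and 20 passed the low-count filter. edgeR called 0 of the 20, with 2 higher and 6 lower at an unadjusted p under 0.05, where the shares over all tested genes were 20.2% and 17.3%. DESeq2 called 2 higher and 4 lower, where the shares over all genes were 16.3% and 7.78%. Without control 3 edgeR called 8 of the list, and without AMH 3 it called 2. The median log2 fold change was -0.47, against -0.01 over all tested genes, and 0.25 without control 2. Summed CPM of the list was 3026 ± 1007 in AMH libraries and 4716 ± 375 in controls (SD, n = 3 each). A two-sided exact permutation test gave p = 0.1 for the sum, the smallest value possible with 3 libraries a group. Bpgm alone made up 87.1% to 91.4% of that sum in each library. Set against the globins, Alas2 had 3.29, 7.13 and 5.13 counts per 100 globin counts in AMH 1, 2 and 3, against 404, 173 and 64.6 in controls 1, 2 and 3. The ratio was lower in every AMH library than in any control, with the globins, chosen for their known values, as its denominator. Alas2 counts themselves overlapped between the groups, so nothing is read from that order.

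**Figure D4:**
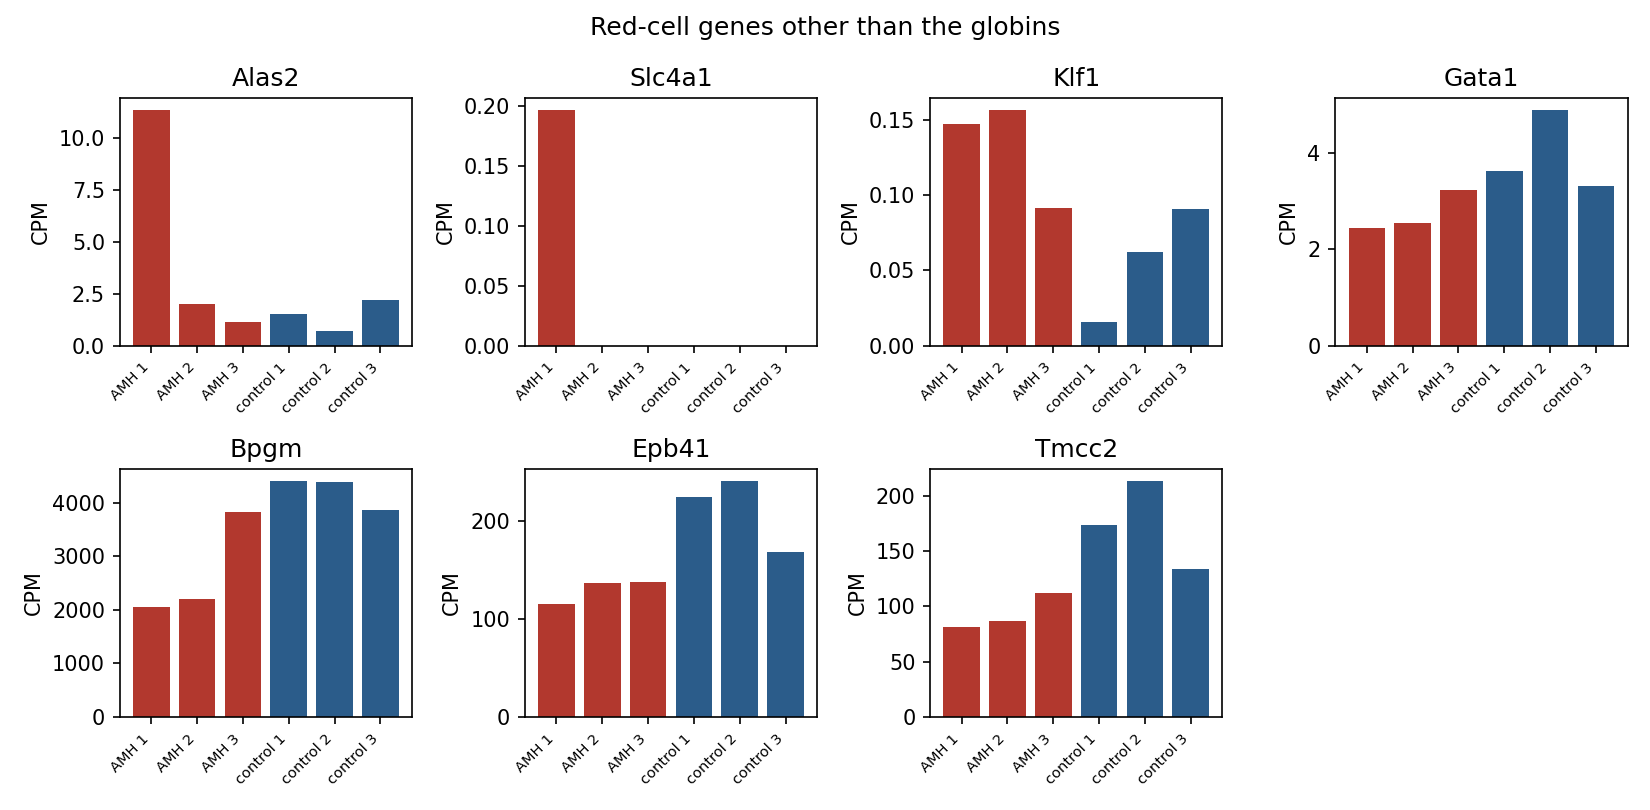
CPM of 7 red-cell genes other than globins in each library (AMH red, control blue), each panel with its own axis from 0. Alas2 and Slc4a1 are highest in AMH 1, while Gata1, Bpgm, Epb41 and Tmcc2 are lower in every AMH library than in any control.

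The lists for haem synthesis, for haem and iron handling and for globin transcription had median log2 fold changes above 0, and none of their genes passed edgeR's test with all libraries. Over all tested genes 20.2% were higher and 17.3% lower at an unadjusted edgeR p under 0.05, and DESeq2 called 16.3% higher and 7.78% lower. Without control 3 edgeR called 7 genes of haem synthesis, 11 of haem and iron handling and 8 of globin transcription, and without AMH 3 it called 1 of haem and iron handling. Of 15 genes of haem synthesis edgeR called 0, with 7 higher and 1 lower at an unadjusted p under 0.05, and DESeq2 called 7 higher and 1 lower; the median log2 fold change was 0.74, and 0.34 without AMH 1. The most abundant were Cpox, a late enzyme of the pathway, the glycine carrier Slc25a38 and Tmem14c, with log2 fold changes of -0.41, -0.41 and -0.36. Of 18 genes of haem and iron handling edgeR called 0, with 6 higher and 1 lower at an unadjusted p under 0.05, and DESeq2 called 5 higher and 1 lower; the median was 1.10. Ftl1, the ferritin light chain, had 1118, 997 and 584 CPM in AMH 1, 2 and 3, against 303, 99.9 and 333 CPM in controls 1, 2 and 3. Ncoa4, the receptor that sends ferritin to autophagy, had 381, 423 and 587 CPM in AMH libraries, against 641, 629 and 642 CPM in controls. Lrp1, a receptor that takes up haem bound to haemopexin, had a log2 fold change of -0.20. Of 14 tested regulators of globin transcription edgeR called 0, with 4 higher and 1 lower at an unadjusted p under 0.05, and DESeq2 called 2 higher and 0 lower; the median was 0.81, and 1.55 without control 3. The most abundant of them, Mafg, Nfe2l2 and Runx1, had log2 fold changes of -0.19, 0.78 and 1.80.

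Marker lists of other cell types were set beside the globins, and their part in the globin levels was not tested. Summed CPM of 12 white blood cell markers was 97.7, 147 and 94.5 in AMH 1, 2 and 3, against 31.1, 22.1 and 67.9 in controls 1, 2 and 3, highest in AMH 2 rather than AMH 1. Of these markers S100a8 and S100a9, defining genes of neutrophils, had 0 to 6 counts in any library. Summed CPM of 6 platelet markers was 2.88, 5.16 and 0.747 in AMH libraries, against 0.589, 0.234 and 0.698 in controls, and the platelet gene Gp1bb had 0 counts throughout. Summed CPM of 8 endothelial markers was 115, 135 and 198 in AMH libraries, against 232, 246 and 205 in controls; nearly all of it was Pecam1, Tie1, Tek and Kdr. The other markers of that list were far lower and not of that order. Cdh5, an adhesion molecule of endothelial junctions, had 214, 150 and 114 counts in AMH libraries, against 26, 17 and 105 counts in controls. Egfl7 had 48, 74 and 47 counts in AMH libraries, against 12, 4 and 29 counts in controls. Emcn had 0 counts throughout and Cldn5 had 0 to 3.

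Summed CPM of 18 cumulus and granulosa markers was 2659, 2369 and 2610 in AMH 1, 2 and 3, against 470, 279 and 2774 in controls 1, 2 and 3. Control 3 was thus at the AMH level for these markers while its summed globin CPM of 3.43 was below the 21.7 of AMH 3. Summed CPM of 5 theca markers was 3916, 3796 and 2085 in AMH libraries, against 995, 170 and 2104 in controls; nearly all of it came from Cyp11a1, Hsd3b1 and Star, which granulosa and luteal cells also express, and the theca-defining Cyp17a1 and Insl3 had 0 to 3 counts. Summed CPM of 6 oviduct markers was 711, 414 and 175 in AMH 1, 2 and 3, against 81.2, 34.6 and 196 in controls 1, 2 and 3. Within the AMH libraries the oviduct sum had the same order as the globins. So did the sums for theca, for haem and iron handling and for globin transcription, so the order is not particular to the oviduct list. In both the oviduct and the theca sum control 3 was above AMH 3, unlike in the globins. The most abundant gene of the oviduct list was Ovgp1, an oviduct-specific glycoprotein. Ovgp1 had 379, 164 and 31.8 CPM in AMH 1, 2 and 3, against 16.6, 2.52 and 21.7 CPM in controls 1, 2 and 3. For this gene every AMH library was above every control, as for the globins and for 26.9% of all tested genes.

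**Figure D5:**
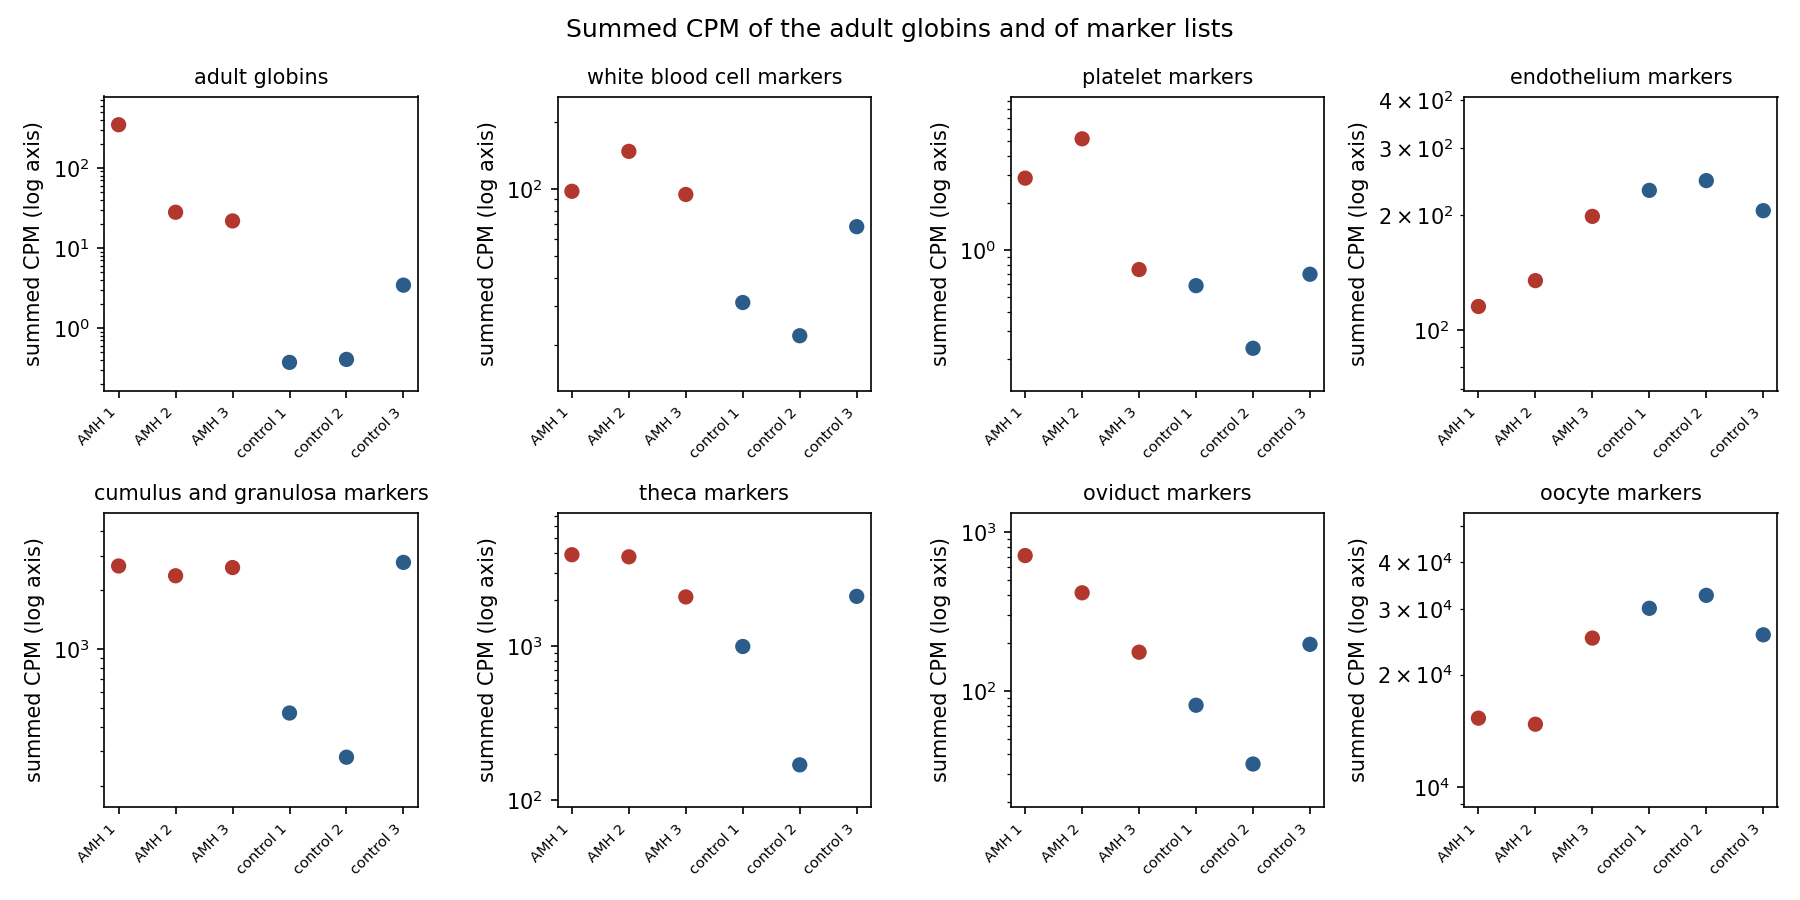
Summed CPM (log axes, each panel with its own range) of the adult globins and of 7 marker lists in each library (AMH red, control blue). The globins span 0.372 to 345 CPM with AMH 1 highest; control 3 lies with the AMH libraries for the cumulus and granulosa markers but below them for the globins.

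The 4 globins varied together: over the 6 libraries, Pearson's r of log2 CPM between members was 0.849 to 0.997, highest between Hba-a1 and Hbb-bs and lowest between Hbb-bs and Hbb-bt. The libraries are shared by all genes and split into 2 groups, so these values describe the 6 libraries only. Of 12764 other protein-coding genes whose mean CPM was 1 or more, those closest to the mean log2 CPM of the 4 globins were Mocs2, Sirt7, Wrap73, Cacnb3, BC005624, Chchd3, Dnajb2, 1700037H04Rik, Gstt2 and Mrpl37, with r of 0.990 to 0.997. Their differences were much smaller than those of the globins. Mocs2, a molybdenum cofactor enzyme, had 22.1, 18.3 and 17.7 CPM in AMH 1, 2 and 3, against 13.5, 13.3 and 14.7 CPM in controls 1, 2 and 3. Gstt2, a glutathione transferase with the largest log2 fold change of the 10 (2.28), had 21.2, 7.44 and 7.02 CPM in AMH libraries, against 2.20, 1.70 and 3.43 CPM in controls.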

How the data were processed

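For each library the authors deposited raw counts by Ensembl gene, and FPKM. Per the submitters' processing notes the tools included DESeq2 1.20.0, featureCounts 1.5.0-p3 and HISAT2 2.0.5, on GRCm38. The sources used here do not give what each did, the strand setting or the handling of reads that fit several genes. The deposited FPKM could be rebuilt from count, gene length and a library-wide effective size, 1.05 to 1.18 of the count total in AMH libraries and 0.924 to 0.997 of it in controls. RNA was prepared from frozen oocytes with a SMART kit and mRNA was selected with poly-T beads, per the labels' protocols. Every row names a gene.

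Counts were tested over 18868 genes with edgeR 4.0.16 (R 4.3.3; quasi-likelihood, robust, TMM, default filterByExpr, group alone, Benjamini-Hochberg adjustment at 0.05). The limma 3.58.1 test took log2(FPKM + 1) of genes that exceeded 1 FPKM in 3 or more libraries, and DESeq2 1.42.0 was an alternative. The tests were checked on simulated counts. The closest pair of libraries, AMH 3 and control 3, differed by a chi-square of 55.9 per degree of freedom, so none was counted as a duplicate. Since the labels do not say that libraries are separate animals, p-values reflect only how these libraries spread, possibly for technical reasons. The 4 globins and the gene lists were chosen with earlier results of these data known.

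Named genes were the globins, Alas2, Slc4a1, Ahsp, Klf1 and Gata1, the 3 most abundant genes of each list where none passed the test, the flanking genes, and the 10 genes with the highest Pearson correlation over 6 libraries with the mean log2 CPM (prior count 2) of the globins. A gene this rule names is not reported here. A list of locus genes was set aside for genes taken by position, since Polr3k of that list lies on chromosome 2.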

Additional observations from a re-analysis of the deposited data

How the results depend on the processing

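The log2 fold changes of all 4 globins were positive in each of 13 alternatives; with groups that do not overlap, leaving libraries out cannot turn the sign. Without 1 library in turn it ran from 4.22 to 8.71 for Hba-a1, 4.39 to 7.39 for Hba-a2, 3.95 to 9.23 for Hbb-bs and 4.14 to 9.71 for Hbb-bt. Without AMH 1 and control 3 together, a choice made after seeing the data, it was 6.32 for Hba-a1, 4.71 for Hba-a2, 6.92 for Hbb-bs and 3.70 for Hbb-bt. The cause was not tested. edgeR called 0 to 7513 genes without 1 library in turn, while DESeq2 called 4535 with all libraries. Left-out libraries under DESeq2, a choice made after seeing the data, gave 267 without AMH 1, 279 without AMH 2, 7169 without AMH 3, 506 without control 1, 1456 without control 2 and 9686 without control 3, and limma on FPKM called 0 to 6891 (4411 without AMH 3, 6891 without control 3). In the red-cell list the median log2 fold change ran from -0.43 to 0.25 without 1 library in turn and was 0.92 with no filter, where more genes of low count entered, and -0.55 without AMH 1 and control 3; 0 to 8 of its genes were called by edgeR without 1 library and 6 by DESeq2.

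The share differences, AMH minus control, ran without 1 library in turn from -4.29 to 10.1 points for alpha, -4.18 to 21.8 for Hba-a1 and -12.4 to 26.8 for Hbb-bs, each negative without control 2 only. With the replicate number as a block the log2 fold changes were 6.69 for Hba-a1, 5.53 for Hba-a2, 6.75 for Hbb-bs and 6.02 for Hbb-bt, and edgeR called 0 genes. Deviations of same-numbered libraries from their group means correlated at 0.0596, -0.103 and -0.250. With 3 libraries a group such values cannot decide whether the numbers pair the libraries. AMH 3 and control 3, which share a number, were the closest pair by chi-square per degree of freedom (55.9). Library size only moved the median of all genes to 0.26 and upper-quartile scaling to -0.23. Depth limits the shares in controls 1 and 2, which rest on 24 and 26 globin counts.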
